A study of Paxillus involutus ATCC 200175 with 12 samples.

Results

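The features described here are the transcripts of the fungus Paxillus involutus whose level was highest when glucose and ammonium were supplied together. A feature belonged to the set when its mean over all 12 arrays was at least 6 and its group mean with both nutrients was at least 0.5 above the mean of each other group, on the log2 scale. Of 12214 features, 86 met this rule, out of 11499 with a mean of at least 6. The label fits the rule by construction, and the values that chose the members are given below as a description only.

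Mycelium of strain ATCC 200175 was grown without a host on glass beads for 9 days in a mineral medium and deprived of nitrogen for 24 h. An extract of maize compost in hot water, freed of particles over 0.2 um and of compounds under 10 kDa, was then supplied for 7 days. All 4 groups of 3 arrays received this extract: OM had nothing else, OM+G also had glucose, OM+N ammonium, and OM+N+G both nutrients. No source used here gives the doses, and the groups model mycelium without a tree, on a sterile extract. The design text names 3 separate cultures without saying whether these are 3 per group, so p-values measure the spread between arrays, which may be partly technical.

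Ectomycorrhizal fungi such as Paxillus involutus live on tree roots, receive sugar from the tree and deliver nitrogen that they take up from soil and litter. Ammonium is a nitrogen source that fungi assimilate readily into glutamine and glutamate, a step that draws on carbon skeletons from sugar. Glucose and ammonium are also known signals in fungi, in which they can repress genes for the use of other carbon and nitrogen sources. The series asked how both nutrients govern the use of litter nitrogen.

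Levels are RMA values on the log2 scale, 1 per feature and array, so a difference of 1 is a doubling. The features carry running numbers, and neither the files nor the reference gene table pairs them with genes, so no gene function is given for any member. All 86 members were summarised from 10 probes. Array medians over all features lay between 11.74 and 11.78, and the random-sequence control between 3.66 and 3.80. All arrays lay on 1 slide, and each group occupied its own run of subarrays (OM 1 to 3, OM+N 4 to 6, OM+G 7 to 9 and OM+N+G 10 to 12), so slide position and treatment cannot be told apart. OM replicate 2 and OM+N replicate 1 stood apart from their groups, with array weights of 0.266 and 0.430, below those of all other arrays. Without both, the rule chose 86 features, of which 85 were the same, and the numbers of members called below are also given without them.

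Over the 86 members, the mean level on 12 arrays ranged from 8.22 to 13.47 with a median of 11.85, against a median of 11.83 over the 11499 features that reach the level minimum of 6. The members thus spanned dim to bright signals, with 3 under 10 and 4 over 13. The dimmest was paxillus_13629, with a mean of 8.22, and the brightest was paxillus_13127, with 13.47.

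The median over the members was 11.45, 11.47 and 11.39 on the OM arrays and 11.44, 11.62 and 11.58 on the OM+N arrays. It was 11.88, 12.00 and 11.92 on the OM+G arrays and 12.63, 12.40 and 12.71 on the OM+N+G arrays. The OM+N+G arrays lay above all others, as the rule requires of the group means, the OM+G arrays came next, and the OM and OM+N arrays overlapped. In mycelium taken as a whole, more RNA per cell and more cells with that RNA cannot be told apart.

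**Figure D1:**
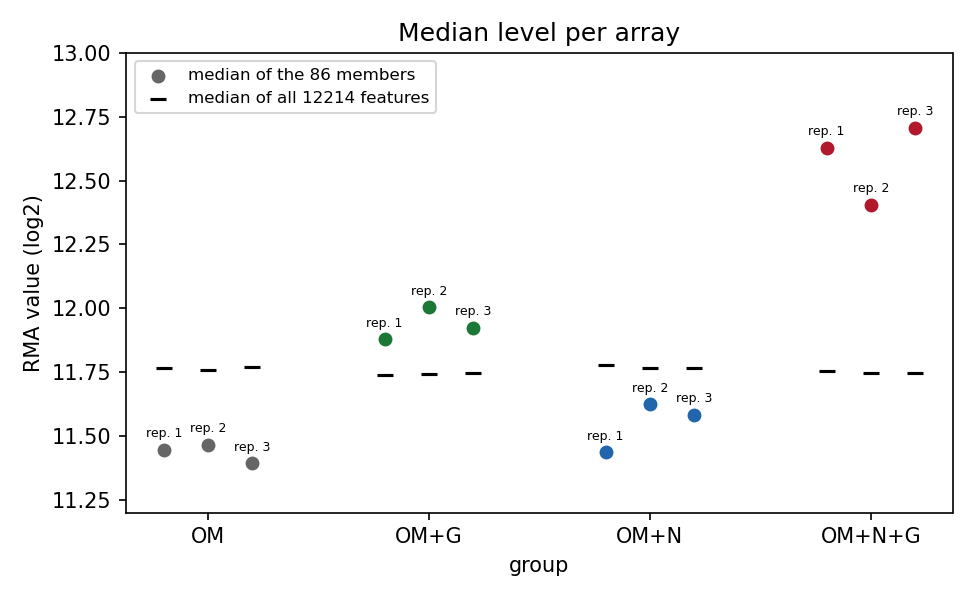
Median RMA value (log2, vertical axis) of the 86 members on each array (coloured points, numbered by replicate) in the 4 groups, with the median of all 12214 features as black dashes. The members lie between 12.40 and 12.71 on the OM+N+G arrays and between 11.39 and 11.62 on the OM and OM+N arrays, while the median of all features stays between 11.74 and 11.78.

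By the values that chose them, the members stood above OM by a median of 1.08 (log2, range 0.60 to 2.29), above OM+N by 0.98 and above OM+G by 0.61. As folds these medians are 2.11, 1.98 and 1.53. The level with both nutrients was at least 2-fold that in OM for 49 members and at least 4-fold for 2. The margin of a member is its OM+N+G mean minus the highest of its other group means, and its median was 0.61, with 42 members under 0.6, 14 at 0.75 or more and 3 at 1 or more. The second-highest group was OM+G for 73 members and OM+N for 13, and the lowest was OM for 62, OM+N for 17 and OM+G for 7.

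The largest margin was that of paxillus_3701. It stood at 11.24, 11.47 and 11.40 on the OM arrays, at 11.50, 11.47 and 11.56 with glucose, at 11.25, 11.43 and 11.54 with ammonium, and at 12.78, 12.86 and 12.79 with both. The 9 arrays without the combination overlapped among each other, and the 3 with it lay clearly apart. Its margin of 1.30 is 2.47-fold.

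The next margin was that of paxillus_4580, at 1.18. Its arrays read 11.66, 11.89 and 11.66 in OM, 12.54, 12.45 and 12.56 in OM+G, 11.87, 12.54 and 12.19 in OM+N, and 13.79, 13.71 and 13.59 in OM+N+G. Unlike paxillus_3701, its OM+G arrays already lay above all OM arrays, and its OM+N arrays were spread from the OM level to the OM+G level.

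The members next to the threshold differed little from features just outside it. paxillus_11163 (margin 0.504) and paxillus_1360 (margin 0.505) were the last inside, with OM+N+G means of 11.49 ± 0.15 and 11.93 ± 0.09 (SD, n = 3). paxillus_9061 (margin 0.499) and paxillus_1380 (margin 0.497) were the first outside, with OM+N+G means of 11.65 ± 0.07 and 13.52 ± 0.22. These steps are smaller than the SDs, so the edge of the set is arbitrary at the scale of the replicate spread.

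For 84 of the 86 members all 3 OM+N+G arrays lay above all 9 other arrays, against 7.15% of all features. The rule used these same arrays, so nothing follows from this count. The exceptions, named after their values were seen, were paxillus_13629 and paxillus_7038. paxillus_13629 read 9.21, 8.31 and 10.13 in OM+N+G and 9.26, 9.24 and 7.58 in OM+G, so both groups overlapped, and its SDs of 0.91 and 0.97 were the largest of all members in these groups. The lowest OM+N+G array of paxillus_7038, at 13.20, lay within rounding of its highest OM+G array, at 13.21.

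**Figure D2:**
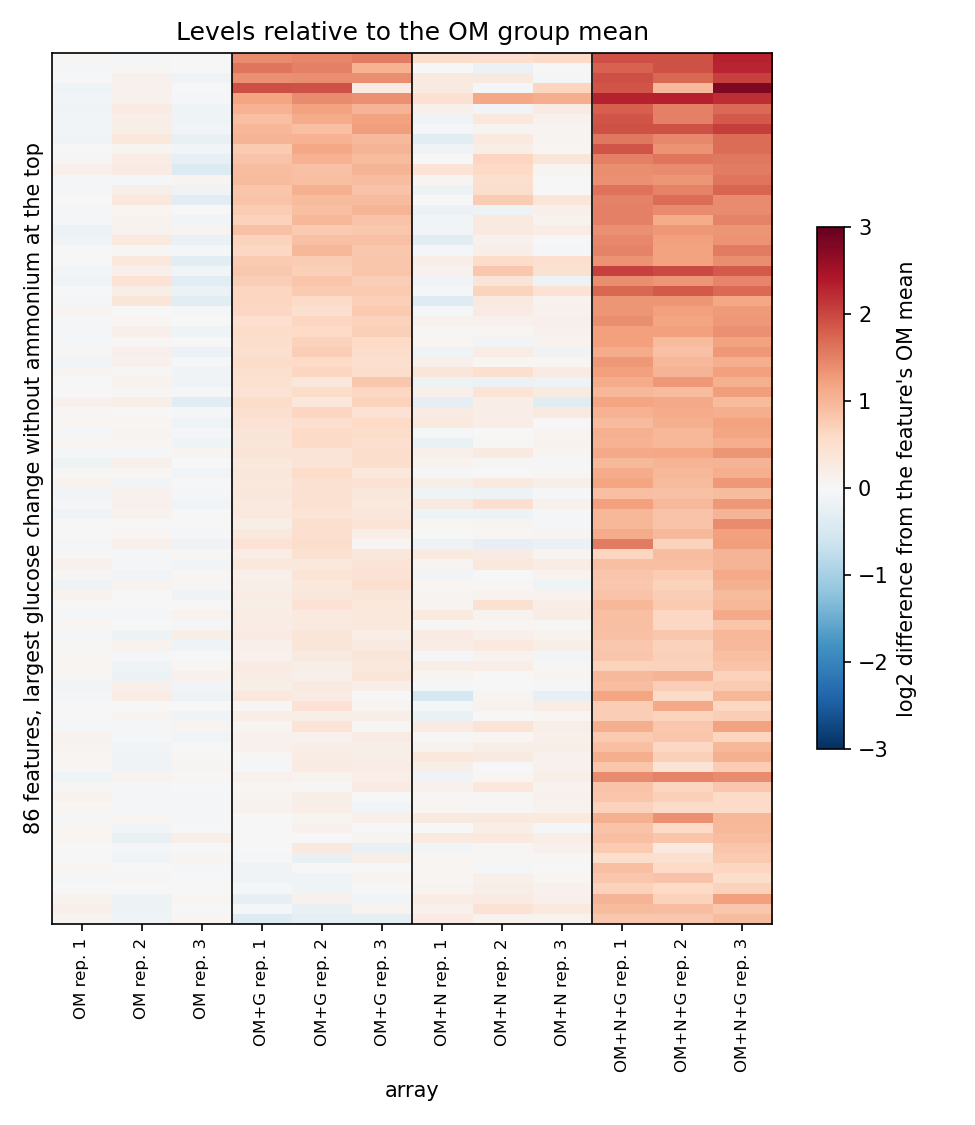
Level of each of the 86 members (rows, ordered by the glucose change without ammonium) on the 12 arrays (columns), as the log2 difference from the feature's own OM mean. OM+N+G columns are darkest in most rows, with paxillus_13629 and paxillus_7038 as exceptions on single arrays, OM+G columns fade from top to bottom on the whole, and OM+N columns stay close to OM in most rows.

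The spread between replicates was wider among the members than among all features in 3 of the groups. The median SD of the members was 0.129 in OM+N+G against 0.077 over all features, 0.098 against 0.062 in OM+G, and 0.104 against 0.084 in OM+N. In OM it was 0.103 against 0.101. Within OM+N+G, 62 of 86 members lay above their group mean on replicate 3 and 54 on replicate 1, but 19 on replicate 2. These arrays chose the members, and the shares over all features were not computed, so the counts are a description only. The mean deviation of the members from their group means was 0.070, 0.028 and -0.098 on these arrays, while that of all features was -0.006, 0.011 and -0.005.

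To see the same measure in arrays that did not choose the members, the set was chosen again without 1 OM+N+G array, and the array left out was then read. Without OM+N+G replicate 1, 92 features were chosen, and 69 of them stood at least 0.5 above each other group mean on replicate 1, against 0.783% of all features with a mean of at least 6. Without replicate 3, 56 of 66 chosen features did so on replicate 3, against 1.23%. Without replicate 2, 43 of 106 did so on replicate 2, against 0.478%, with a median of 0.47 on that array where the arrays that chose them had a median margin of 0.62. Replicate 2 thus gave the members a smaller excess than the other OM+N+G arrays did. The array weights, which rest on all features, were 1.10, 1.82 and 0.504 for OM+N+G replicates 1, 2 and 3. By these weights replicate 3, not replicate 2, stood farthest from the group, so the smaller excess does not mark replicate 2 as the deviating array. Nearly all chosen features were still above each other group mean on the array left out, 90 of 92, 101 of 106 and 66 of 66 on replicates 1, 2 and 3, against 27.2%, 25% and 25.2% of all features with a mean of at least 6. These are single arrays of 1 slide, and no test was made. All 3 choices share the arrays of the other groups, so a deviation of those arrays would recur in each.

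The comparisons among OM, OM+G and OM+N hold no OM+N+G array. In each of them, differences were tested with limma over all 12214 features, and a feature was called at a Benjamini-Hochberg adjusted p under 0.05. The rule did not use these differences themselves, but the means of the same 9 arrays entered it as the levels that OM+N+G had to exceed. A glucose response seen without ammonium may recur with ammonium and raise the level in OM+N+G, which was not tested. The members' counts and p-values below therefore describe the set, are not independent of its choice and single out nothing particular to it.

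The first of these comparisons asks whether the members already responded to glucose without ammonium. Between OM and OM+G, 64 of the 86 members rose, where 29.8% of all features did, and 1 fell, where 36.4% of all features did. The median log2 difference of the members was 0.39, or 1.31-fold, against -0.03 over all features. The range over members was from -0.31 to 1.48. All 3 OM+G arrays lay above all 3 OM arrays for 66 members, against 33% of all features. Without OM replicate 2 and OM+N replicate 1, 62 members rose, against 31.4% of all features, and 1 fell, against 38.8%.

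paxillus_1473 had the largest rise. It read 10.21, 10.13 and 10.20 in OM and 11.60, 11.66 and 11.73 in OM+G, which did not overlap, a 2.79-fold change (log2 1.48, SE 0.09, limma adjusted p = 2.36e-06). With ammonium alone its arrays read 10.70, 10.68 and 10.76, and with both nutrients 12.12, 12.08 and 12.50. The levels of this feature formed a staircase of 4 separate steps.

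paxillus_13535 rose 2.62-fold with glucose (log2 1.39, SE 0.14, limma adjusted p = 8.95e-06), from 8.20, 8.30 and 8.28 in OM to 9.86, 9.78 and 9.32 in OM+G. Its OM+N arrays read 8.25, 8.09 and 8.27 and its OM+N+G arrays 10.04, 10.16 and 10.54. Here the OM and OM+N arrays overlapped, and the OM+N+G arrays lay above those with glucose.

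paxillus_3389 was the member that fell. It read 10.28, 10.08 and 10.27 in OM, 9.82, 9.94 and 9.94 in OM+G, 10.45, 10.31 and 10.33 in OM+N, and 11.01, 11.02 and 11.16 in OM+N+G. The lowest group was thus glucose alone and the highest glucose with ammonium. The fall without ammonium was 0.31 on the log2 scale (difference -0.31, SE 0.07, limma adjusted p = 0.00227). It was not called after cyclic loess (-0.08, limma adjusted p = 0.233) or after quantile normalization (-0.10, limma adjusted p = 0.209).

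**Figure D3:**
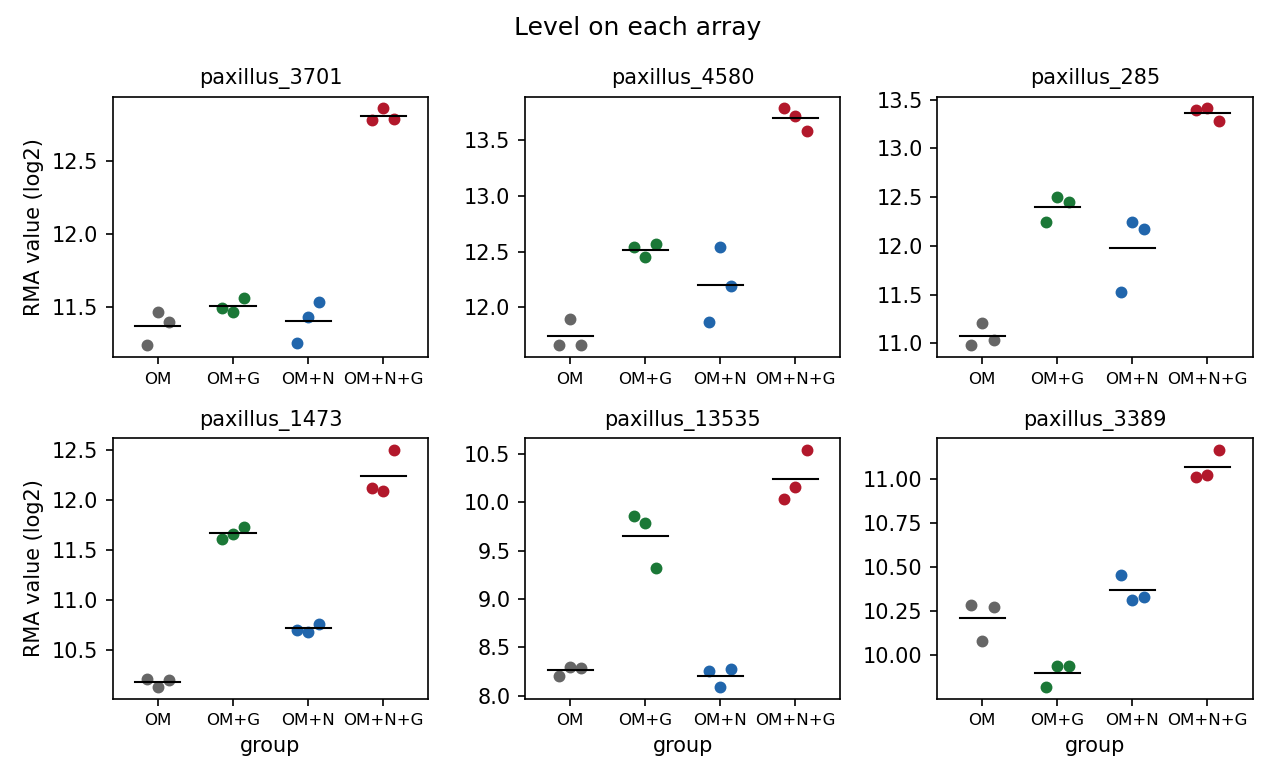
RMA value (log2, vertical axes with their own ranges) of 6 members on each array, by group (horizontal axis), with a bar at each group mean. The 3 OM+N+G points are the highest in all panels, while the OM+G points lie near OM in paxillus_3701, above it in paxillus_4580, paxillus_285, paxillus_1473 and paxillus_13535, and below it in paxillus_3389.

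The 64 members that rose with glucose alone and the 21 that were not called differed in how their total excess was made up. In the former, the median difference between OM+N+G and OM was 1.16 (log2), and the change with glucose alone came to a median of 48.0% of it. In the latter the median difference was 0.83, and the change with glucose alone came to 9.64% of it. The median margin was 0.58 in the former and 0.65 in the latter. These classes were made from the values themselves, so the figures are a description without a test.

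For 19 members the means of OM, OM+G and OM+N lay within 0.25 of each other. The range was smallest for paxillus_7038, whose means were 12.90 ± 0.03, 12.94 ± 0.25 and 12.92 ± 0.10 in OM, OM+G and OM+N and 13.53 ± 0.29 with both nutrients (SD, n = 3). It was next smallest for paxillus_5194, with 10.58 ± 0.07, 10.62 ± 0.07, 10.63 ± 0.13 and 11.38 ± 0.20 in the same order. At the other end, 39 members had a range of at least 0.5 and 9 of at least 1, and the widest were those of paxillus_1473 (1.48) and paxillus_13535 (1.45).

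The second comparison asks whether the members responded to ammonium without glucose. Between OM and OM+N, 2 of 86 members rose, where 0.0901% of all features did, and 0 fell by limma, where 0.246% of all features did. At an unadjusted p under 0.05, 23 members were higher, against 7.14% of all features, and 0 lower, against 8.02%. All OM+N arrays lay above all OM arrays for 21 members, against 9.58% of all features. The median log2 difference of the members was 0.10, or 1.07-fold, against 0.03 over all features. This comparison uses the OM arrays of the comparison before, and their deviations enter both.

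paxillus_285 rose 1.87-fold with ammonium alone (log2 0.91, SE 0.15, limma adjusted p = 0.0212). Its arrays read 10.98, 11.21 and 11.03 in OM and 11.52, 12.25 and 12.17 in OM+N, with replicate 1 well under the others. They read 12.25, 12.50 and 12.45 in OM+G and 13.39, 13.41 and 13.28 in OM+N+G, so the OM+N and OM+G arrays met at 12.25 and the OM+N+G arrays lay apart. At 4.87-fold, its mean with both nutrients stood farther above OM than that of any other member.

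paxillus_1473, the leading glucose riser, was the other member that rose with ammonium alone, 1.45-fold (log2 0.53, SE 0.09, limma adjusted p = 0.0267). Both calls were lost in some fits without a single array, although the log2 differences remained. These ran from 0.51 to 0.55 for paxillus_1473 and from 0.77 to 1.13 for paxillus_285 over the fits without 1 array. Without OM replicate 1, 0 of the 86 members rose by limma, against 0.0327% of all features, with an adjusted p of 0.112 for each of these 2 features. In that fit 17 members had an unadjusted p under 0.05. Without OM+N replicate 3 the count was again 0, against 0.0327% of all features, with 25 members at an unadjusted p under 0.05. The limma adjusted p-values were 0.0994 for paxillus_285 and 0.102 for paxillus_1473. The count of members that rose was 1 without OM replicate 2 (0.0819% of all features) or without OM+G replicate 2 (0.0737%). In both fits paxillus_1473 lost its call. paxillus_1473 also lost its call without OM+N replicate 1 (limma adjusted p = 0.0611). There the count stayed at 2 with 1 other member in its place, against 0.131% of all features. A fit to the 6 arrays of OM and OM+N alone also gave 0, against 0.00819% of all features, with 22 members at an unadjusted p under 0.05. With OM replicate 2 and OM+N replicate 1 both left out, 5 members rose, against 0.237% of all features, 0 fell by limma, and 26 had an unadjusted p under 0.05. Of these 5, 1 had risen with all arrays, and it was not paxillus_1473 (limma adjusted p = 0.145). The counts at an unadjusted p in this paragraph take both directions. Their shares over all features were not computed for these fits, so nothing is read from them. With all arrays 23 members passed, against 15.7% of features with a mean of at least 6.

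The third comparison sets glucose alone against ammonium alone and shares its arrays with the others. In OM+G, 54 members were higher than in OM+N, where 31.5% of all features were, and 5 were lower, where 41.5% of all features were. The median log2 difference of the members was 0.32, against -0.08 over all features. All OM+G arrays lay above all OM+N arrays for 53 members, against 33.3% of all features. Without OM replicate 2 and OM+N replicate 1, 48 members were higher, against 31.2% of all features, and 4 lower, against 39.4%. paxillus_13535 differed most, by 2.73-fold (log2 1.45, SE 0.14, limma adjusted p = 2.83e-06), followed by paxillus_651, by 2.33-fold (log2 1.22, SE 0.10, limma adjusted p = 1.58e-06). The latter read 11.32, 11.33 and 11.33 with glucose alone and 10.22, 10.21 and 9.88 with ammonium alone, which did not overlap. It stood at 11.88, 11.66 and 12.00 with both.

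Of the 5 members lower with glucose alone than with ammonium alone, paxillus_3389 (log2 -0.47, SE 0.07, limma adjusted p = 8.34e-05) and paxillus_4034 (log2 -0.35, SE 0.10, limma adjusted p = 0.00738) differed most. The arrays of paxillus_4034 read 11.26, 11.10 and 11.41 in OM+G, 11.45, 11.75 and 11.62 in OM+N, and 12.27, 12.25 and 12.13 with both nutrients. The other members, named after their values were seen, were paxillus_8515, paxillus_10475 and paxillus_3700. The number was 3 when OM+G replicate 1, OM+N replicate 1 or OM+N replicate 2 was left out, and paxillus_4034 was not called after cyclic loess (log2 -0.24, limma adjusted p = 0.0545). The difference of paxillus_3389 shrank to -0.18 after cyclic loess (limma adjusted p = 0.0182) and to -0.22 after quantile normalization (limma adjusted p = 0.00823), which turns the order of both features.

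**Figure D4:**
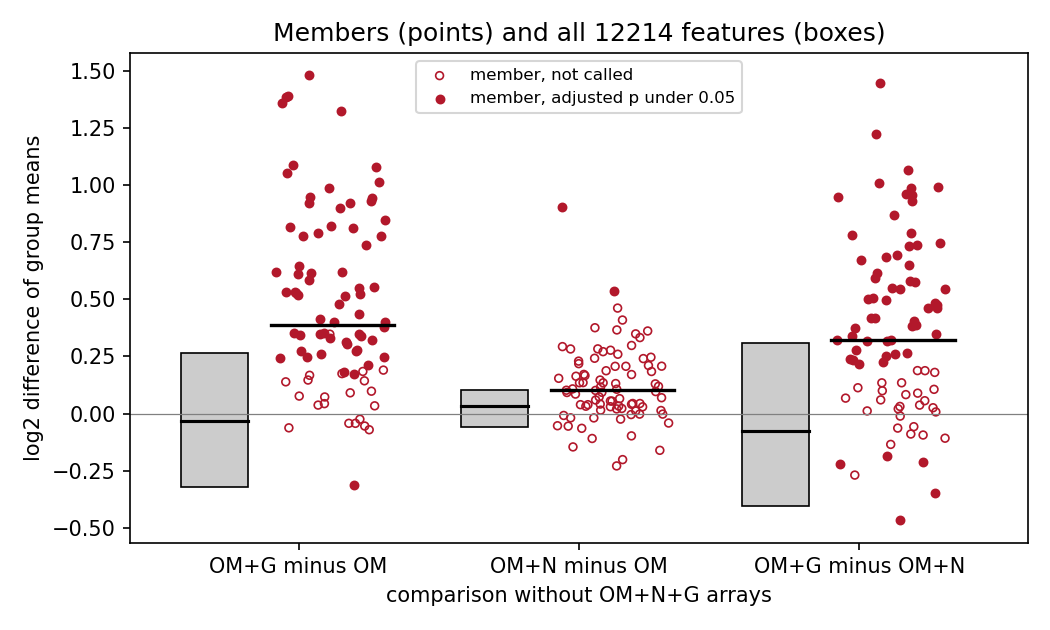
Log2 difference of group means (vertical axis) in the 3 comparisons without OM+N+G arrays (horizontal axis), for the 86 members (filled points called at a limma adjusted p under 0.05, open points not called, black bar at their median) and for all 12214 features (grey boxes from the 25th to the 75th percentile, black line at the median). The members' medians are 0.39, 0.10 and 0.32, against -0.03, 0.03 and -0.08 over all features, and 2 points are filled in the comparison of ammonium alone.

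The response to both nutrients can also be set against the sum of the single responses. The glucose change in the presence of ammonium exceeded that in its absence for all 86 members. The difference had a median of 0.56 and ran from 0.04 to 1.26 (log2), against a median of -0.03 over all features. The rule selects for such values, so this is a description. The value was smallest for paxillus_1473, whose single changes of 1.48 and 0.53 came close to the 2.05 by which OM+N+G exceeded OM. It was largest for paxillus_3701, whose single changes were 0.14 and 0.04 against 1.44 with both. paxillus_285 lay near the first case, with 0.06.

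Some members lay next to each other in the numbering of the features, which runs from 1 to 13654. Of the 86, 14 had a member as direct neighbour, in 6 runs, the longest of which held 4. Of the 150 places directly before or after a member that hold a feature with a mean of at least 6, 16 were members (10.7%), while 0.748% of all such features are members. What the order of the numbers stands for is not stated in the sources used. Whether neighbours share probe sequence was not tested, so neighbouring members may not be independent measurements.

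Neighbouring members tended to deviate together. Over the 8 consecutive member pairs, deviations from the group means correlated with a median r of 0.803 (range 0.2 to 0.96). The median was 0.213 over other member pairs and 0.196 over all consecutive pairs with means of at least 6. Neighbours could still differ in the size of their excess. paxillus_3700, next to paxillus_3701, read 12.17, 12.15 and 12.13 in OM, 12.12, 12.04 and 12.14 in OM+G, 12.23, 12.33 and 12.29 in OM+N, and 12.83, 12.75 and 12.84 in OM+N+G. Its margin was 0.53, against 1.30 for paxillus_3701, so the neighbours shared the highest group but not the size of the excess. The r of this pair was 0.212, far under the median of the consecutive member pairs, so the pair is not typical of them. Levels of different features also depend on their probes and are not compared. paxillus_5193 and paxillus_5194, part of the run of 4, had margins of 0.67 and 0.75 and an r of 0.847. Both had their lowest OM+N+G array on replicate 2, at 11.09 and 11.17. Only 19 of the 86 members lay above their group mean on that array, so this is not particular to neighbours.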

How the data were processed

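The deposited log2 values were made by the authors with RMA, per the submitters' processing notes. No source used here names the software, and the log2 scale was read from the values. RMA in its usual form makes arrays alike in distribution, so a shift common to all features cannot be seen. The deposited feature values were still not fully alike between groups. The 25th percentile of the group means over all features was 11.21 in OM and 11.23 in OM+N, but 11.09 in both OM+G and OM+N+G. The deposited series table and the 12 array files held identical values. The deposited count of probes per feature was used only as stated, and the deposited scores named as an error of expression, whose meaning is not stated, were not used. Of 12214 feature IDs, 0 matched the 18033 genes of the reference table.

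Group means were fitted to 12 arrays with limma 3.58.1 in R 4.3.3 (lmFit, contrasts.fit, eBayes), with 8 residual and 4.72 prior degrees of freedom and p-values adjusted by Benjamini-Hochberg over all 12214 features. The random control was left out. Errors of log2 differences are moderated standard errors. Comparisons with OM+N+G were not tested, since they chose the members. The code was tested on simulated data.

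The members and the rules were chosen with earlier results of these data known. Features are named by a rule: the largest and smallest margins, the nearest features outside, the narrowest and widest ranges over the other groups, the largest called rises and falls without overlap (a pair of features each), the brightest and dimmest member, and consecutive pairs. Alternatives were cyclic loess, quantile and 75th percentile scaling, the series table, leaving out the dimmest 25% of features, trend with robust moderation, array weights, fits to 1 contrast, a replicate block, a log2 minimum of 0.5, other margins and levels, and leaving out arrays. Precision is limited by the number of arrays, and the values carry no detection calls.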

Additional observations from a re-analysis of the deposited data

How the results depend on the processing

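The rule gave 352 features at a margin of 0.25, 14 at 0.75 and 3 at 1. Leaving out 1 array in turn gave 66 to 106, the lowest without OM+N+G replicate 3 (63 of them members) and the highest without OM+N+G replicate 2 (84 of them members). Cyclic loess gave 94 with 82 members among them, quantile normalization 68 with 66, and 75th percentile scaling 83, all of them members. On OM+N+G replicate 2, left out of the choice, 93 of 106 features stood at least 0.25 above the other groups, against 2.59% of all features with a mean of at least 6.

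For OM+G against OM, 38 members rose under the log2 minimum of 0.5, which is stricter by construction (11.6% of all features), and 55 to 65 when 1 array was left out (26.2% to 30.5% of all features). The number that fell was 0 under that minimum (12.4% of all features), after cyclic loess (32.2%) and after quantile normalization (33.4%). It was also 0 without the dimmest 25% of features (35.4% of those kept), where paxillus_3389 is itself left out. With array weights it was 2 (41.6% of all features). For OM+N against OM, 4 members rose with array weights (0.426% of all features), 0 in a fit to those arrays alone (0.00819%), 5 with OM replicate 2 and OM+N replicate 1 both left out (0.237%), and 0 to 2 without single arrays (0.0327% to 0.196%). For OM+G against OM+N, 29 members were higher (16.7% of all features) and 0 lower (18.3%) under the log2 minimum, 2 were lower after cyclic loess (35.8%) and 3 after quantile normalization (38.7%), and 3 to 6 without single arrays (38.5% to 42%). The cause of these shifts was not tested, except where the construction is named. All 202 values of named features kept their direction under the alternatives, and 16 lost their call. Many alternatives leave the difference of group means unchanged by construction, so the kept directions say little. These are the series table, trend with robust moderation, fits to 1 contrast, the replicate block, the log2 minimum and leaving out the dimmest features. Leaving out an array of a group not compared does the same. Over all features, the calls for OM+N against OM numbered 41, but 81 without the dimmest 25% of features, 72 with trend and robust moderation, 146 with array weights and 3 in the fit to those arrays alone, and 21 to 132 without single arrays.

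Same-numbered arrays did not deviate together: 4 of 18 such pairs between groups had a correlation of deviations over 0.1 (range -0.308 to 0.425), and for 0 of 12 arrays was the own number the best match in all other groups. The samples share only a number. With the replicate number as a block, 61 members rose (29.5% of all features) and 1 fell (36.1%) with glucose alone. With ammonium alone 2 rose (0.0901%). In glucose alone against ammonium alone, 52 were higher (31.2%) and 5 lower (41.2%).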
